A study of Mus musculus with 14 samples.

Results

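The circadian clock genes Per1, Per2, Per3, Cry1, Cry2, Nr1d1, Nr1d2, Dbp, Bhlhe40, and Arntl were followed through ChIP-seq peak lists from 3T3-L1 adipocytes. These 10 genes, out of 21853 protein-coding genes on the assembled chromosomes, were listed by name, with earlier results of these data known. Every peak in a gene body or within 30 kb of it was assigned to the gene, and a promoter was taken as 1000 bp upstream to 100 bp downstream of any start site of a protein-coding transcript. 3T3-L1 is a mouse fibroblast line that forms adipocytes in culture, and the cells had been differentiated for 4 days. They were left untreated (control) or exposed for 1 h to 10 µM forskolin (FSK, an activator of adenylyl cyclase), to the inflammatory cytokine TNFα, or to FSK and TNFα together (FSK/TNFα). Chromatin was precipitated with antibodies to CRTC2, to NF-κB p65, and to H3AcK27, the acetylated histone mark of active promoters and enhancers.

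In the mammalian clock, BMAL1 (encoded by Arntl) pairs with CLOCK and binds E-box elements to turn on the Per and Cry genes, whose products return to the nucleus and repress that pair. A second loop runs through the nuclear receptors REV-ERBα and REV-ERBβ (Nr1d1 and Nr1d2), which repress Arntl. DBP and BHLHE40 are output and feedback factors under E-box control. Per1 is also a classical immediate-early target of cAMP signaling through CREB, which binds the cAMP response element (CRE), and CRTC2 is a coactivator that cAMP sends to CREB on chromatin. Clock genes oscillate in adipose tissue as they do in most peripheral tissues.

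With a single library behind each of the 12 lists, differences between treatments could not be checked against replicates and no test was possible. The libraries held between 9832884 tags (H3AcK27 with FSK) and 31807394 tags (CRTC2 with FSK/TNFα), and the lists between 214 and 52321 peaks. Control and TNFα libraries had been called against an input from untreated cells and the other 2 treatments against an input from FSK-treated cells, so the treatment and the input cannot be told apart where FSK is compared with its absence. A peak below the calling threshold has no value in the lists, and "not called" does not mean that the protein was absent. The labelled cell type was checked through the start sites of marker genes. H3AcK27 regions covered start sites of 3, 2, 3, and 2 of 10 adipocyte markers with control, FSK, TNFα, and FSK/TNFα, namely Fabp4 and Lpl in every library and Pparg in control and TNFα. The start sites of Adipoq, Plin1, Cebpa, Cd36, Cidec, Lep, and Slc2a4 were covered in none of the 4 libraries. Of 5 preadipocyte or fibroblast markers, 5, 4, 5, and 5 were covered. Of 5 macrophage markers, Cd68 was covered in the 3 treated libraries, and 0 of 5 endothelial markers were covered in any library. The part of these marker levels in the values below was not tested.

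The elements that the CRTC2 peaks of these genes contained are shown first. Per1 (ENSMUSG00000020893) is a plus-strand gene of chromosome 11, spanning 69095217 to 69109960 (GRCm38), with 5 annotated start sites of protein-coding transcripts. The strongest CRTC2 peak of the 10 genes lay in an intron of Per1, at chr11:69097126-69097286 in the FSK list. Its plus-strand sequence in the RefSeq GRCm38.p6 assembly is printed whole, because it holds the only full palindromic CRE (TGACGTCA) in a CRTC2 peak whose nearest start site belonged to a clock gene. Capitals mark matches to TGACG on either strand, the palindrome being a pair of overlapping matches.
Per1 intron peak, FSK: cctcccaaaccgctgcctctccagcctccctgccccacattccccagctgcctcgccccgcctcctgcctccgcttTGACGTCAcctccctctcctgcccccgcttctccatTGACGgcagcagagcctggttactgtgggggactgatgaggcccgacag
The palindrome runs from 69097202 to 69097209, which is 1988 bp downstream of the first start site and 1743 bp upstream of a later one. A further TGACG begins at 69097238.

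Shorter stretches show the other CREs in CRTC2 peaks near Per and Cry start sites. All are on the plus strand of GRCm38, with TGACG or its reverse complement CGTCA in capitals.
Per1, chr11:69094817-69094843, upstream of the first start site (TNFα list): tgggtaagtgtCGTCAaggaaaatccc
Per1, chr11:69098692-69098718, intron (TNFα list): cctttcattatTGACGgtgtgagacat
Per1, chr11:69100009-69100035, intron (FSK/TNFα list): agctcagcggcTGACGtcggtttccct
Per2, chr1:91458498-91458524, intron (FSK and FSK/TNFα lists): gtctcaaaggaTGACGatgtgactgct
Per2, chr1:91460888-91460914, upstream (FSK list): ctcgcttacatTGACGgcaatggtggc
Cry1, chr10:85185047-85185073, start site (FSK, TNFα, and FSK/TNFα lists): tgactccgccgCGTCAgcggcctccgc
These 6 stretches and the Per1 intron peak hold between them a CRE from each treated list, and the control list had none in a peak nearest to a clock gene.

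Dbp provided the element of the other kind. The 200 bases around the midpoint of its intronic CRTC2 peak, chr7:45707634-45707833 in the FSK/TNFα list, contain the E-box CACGTG at 2 positions, shown in capitals, of which the first lies in the called peak and the second downstream of its end.
Dbp intron, FSK/TNFα: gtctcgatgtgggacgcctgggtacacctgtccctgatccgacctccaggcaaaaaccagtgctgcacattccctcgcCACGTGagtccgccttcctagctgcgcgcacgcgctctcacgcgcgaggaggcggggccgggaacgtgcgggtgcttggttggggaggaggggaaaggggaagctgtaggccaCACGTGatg
The palindromic E-box reads the same on both strands.

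CRTC2 promoter peaks were called at few clock genes in control cells and at most of them after TNFα. In control cells, 2 of 10 genes (Per1 and Cry2) had a CRTC2 promoter peak, where 11.8% of all protein-coding genes did. With FSK there were 5 (Per1, Cry1, Nr1d1, Dbp, and Bhlhe40), against 27.4% of all genes. TNFα gave 9, with Per2 as the exception, against 39.9%. FSK/TNFα also gave 9, with Nr1d2 as the exception, against 29.1%. The shares of clock genes were thus above those of all genes in each of the 4 lists, and by the widest margin in the 2 with TNFα. These counts depended on low-scored peaks: when each list was limited to its 5188 best-scored peaks, 2, 2, 1, and 3 of the 10 genes remained, against 11.8%, 16.9%, 21.6%, and 15.9% of all genes. All 10 clock genes had an H3AcK27 promoter region in each library, where between 47.0% and 51.7% of all genes had one. CRTC2 shares among genes with such a region were not computed.

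The switches between lists can be read gene by gene. Cry1, Nr1d1, Dbp, and Bhlhe40 had a promoter peak with FSK and none in control cells (4 of 10, background 17.7%), while Cry2 had one in control cells and none with FSK. With TNFα, Per3, Cry1, Nr1d1, Nr1d2, Dbp, Bhlhe40, and Arntl had a promoter peak that the control list lacked (7 of 10, background 28.5%). With FSK/TNFα, the genes were Per2, Per3, Cry1, Nr1d1, Dbp, Bhlhe40, and Arntl (7 of 10, background 19.6%). Per2, Per3, Cry2, and Arntl had a promoter peak with FSK/TNFα that was not called with FSK (4 of 10, background 7.43%). Per2 was the 1 gene with a promoter peak under FSK/TNFα and none under TNFα (background 2.06%), and Nr1d2 was the reverse case. The first 3 of these comparisons share the control library and the last 3 the FSK/TNFα library, so they are not independent of each other.

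**Figure D1:**
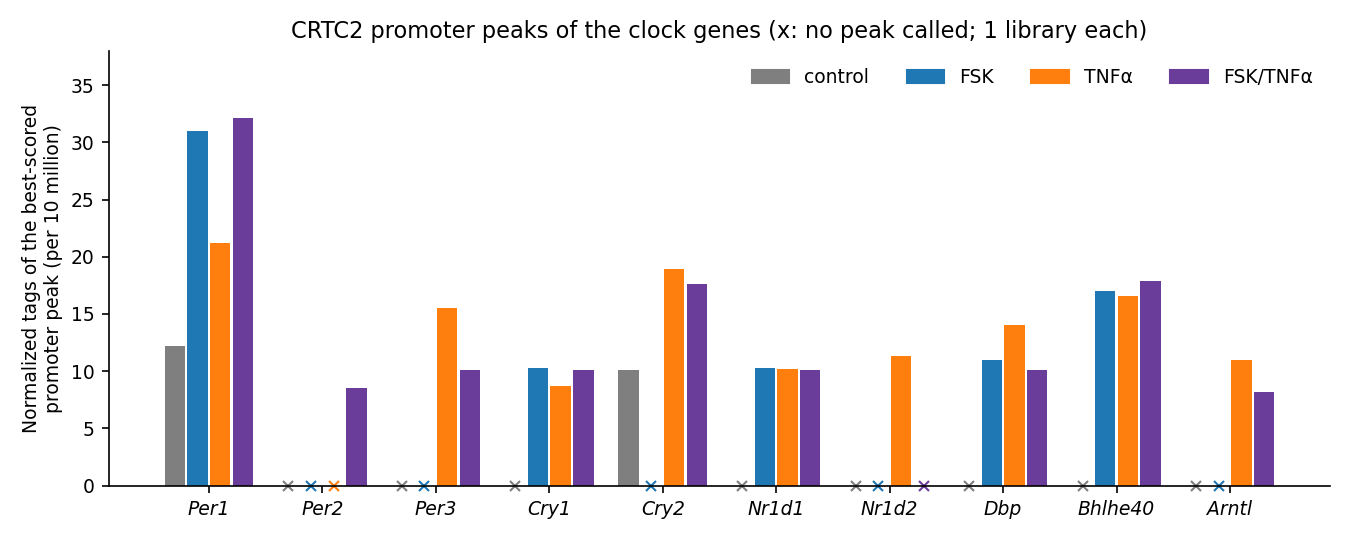
CRTC2 normalized tags (vertical axis, per 10000000 library tags) of the best-scored promoter peak of each clock gene in the control, FSK, TNFα, and FSK/TNFα libraries, 1 bar per library, with a cross where no promoter peak was called. Per1 had a bar in every library, from 12.2 in control cells to 32.1 with FSK/TNFα, and Per2 had a single bar of 8.49 with FSK/TNFα. The Per1 bar of control cells is the peak at the first start site, and that of FSK/TNFα a different peak at a later start site.

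The signal at these promoters was modest. The best-scored promoter peak of a clock gene had a median of 11.1 normalized tags for control, 11.0 for FSK, 14.0 for TNFα, and 10.1 for FSK/TNFα, each over the genes that had one. Over all genes with a promoter peak the medians were 12.2, 15.8, 18.5, and 14.5, so the median of the clock genes lay below that of all bound genes in each list. Normalized tags are tags scaled by the authors to 10000000 per library. Per1 had more tags at its promoter than any other clock gene in each list, above the median of all bound genes in the 3 treated lists and equal to it in control cells. Bhlhe40 was above that median with FSK and FSK/TNFα, and Cry2 with TNFα and FSK/TNFα.

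In the whole windows there were 8 CRTC2 peaks in the control list, 24 in the FSK list, 42 in the TNFα list, and 35 in the FSK/TNFα list, or 109 in all. Of these, 28 lay in promoters, and 57 had a start site of a clock gene as their nearest start site (5, 11, 21, and 20 by list). The remainder were nearer to neighbours such as Tmem107, Vamp2, Hes7, Pex16, Slc35c1, Thra, Msl1, and Rpl18. At least 1 CRTC2 peak was called in the window of 4, 9, 10, and 10 genes, where 32.2%, 53.7%, 64.8%, and 57.5% of all genes had one. Overlapping peaks of the 4 lists were joined into 71 loci, of which 46 were called in 1 list and 2 in all 4. Over the genome, 68.8% of 33768 CRTC2 loci were called in 1 list and 4.37% in all 4. The 2 loci called in every list were nearer to Tmem107 (upstream of Per1) and to Rpl18 (downstream of Dbp) than to a clock gene.

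**Figure D2:**
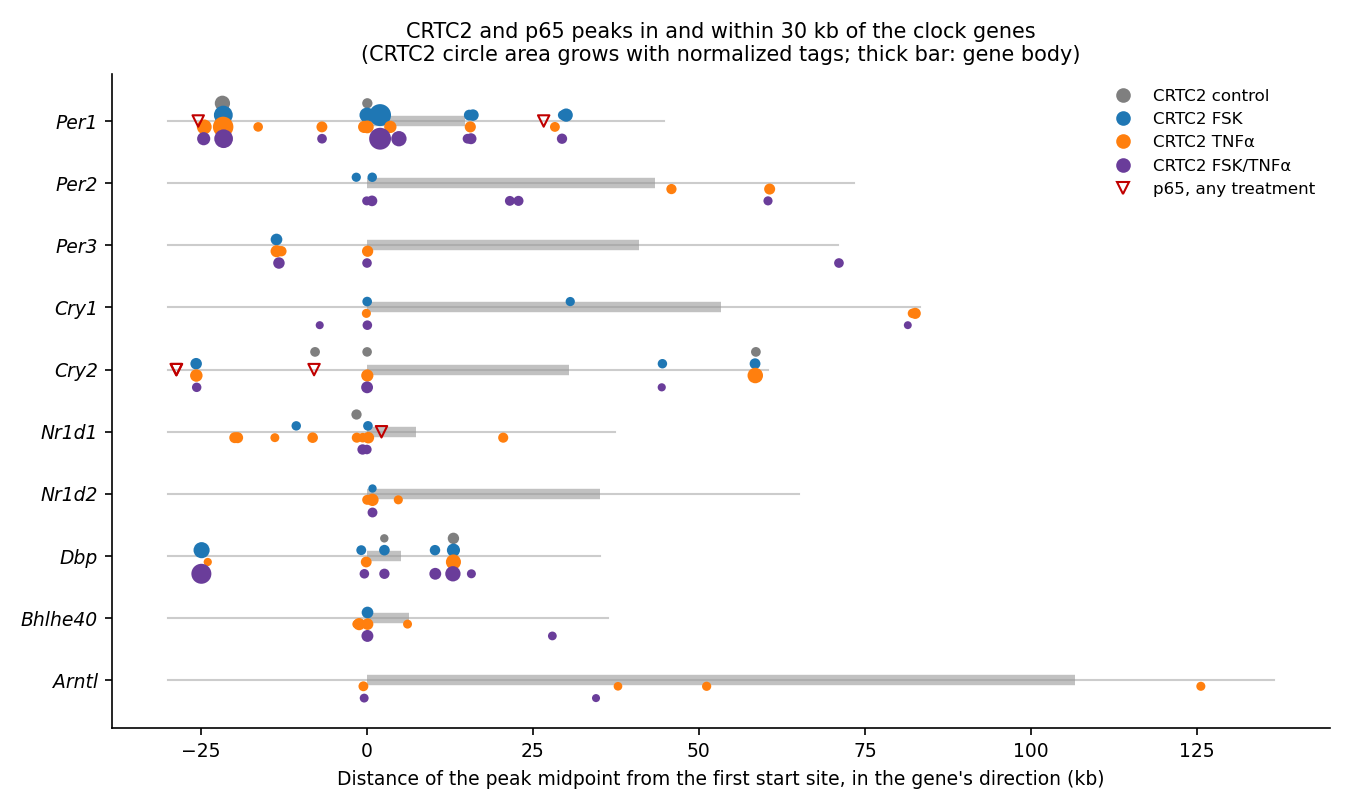
Positions of CRTC2 peaks (circles, colored by treatment, area growing with normalized tags) and p65 peaks (open triangles) against the distance of the peak midpoint from the first start site of each clock gene, in kb along the gene's direction. Gene bodies are thick bars, and the largest circles are the Per1 intron peaks of 70.0 normalized tags with FSK and 69.5 with FSK/TNFα.

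Per1 is the period gene that cAMP induces in many cell types. Its window held the highest CRTC2 peak of the 10 genes in each of the 4 lists. In the control and TNFα lists this was an intergenic peak nearest to Tmem107, and in the FSK and FSK/TNFα lists a Per1 intron peak. The window of Per1 contained 2 control peaks, 7 FSK peaks, 9 TNFα peaks, and 8 FSK/TNFα peaks. Beside the first start site, a peak was called with 12.2 normalized tags in the control list, 31.0 in the FSK list, and 21.2 in the TNFα list, and none was called there with FSK/TNFα. The FSK value was 2.54 times the control value, with a 95% interval of 1.53 to 4.37, and the TNFα value was 1.74 times the control value (1.05 to 2.96). These intervals are exact and rest on the tags of the 2 peaks compared, so they cover counting error between 2 libraries and not the error between cultures. Shared promoter peaks over the genome had median ratios of 1.62 for FSK against control and 2.20 for TNFα against control. Divided by those medians, the Per1 ratios were 1.57 with FSK and 0.791 with TNFα. Each Per1 interval includes the median of its comparison, so neither ratio differed from that median by more than counting error.

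The Per1 intron peak whose sequence is printed above was called in both FSK-treated libraries and in neither of the other 2. It extended from 69097126 to 69097286 with FSK, where it held 115 tags (70.0 normalized), and from 69097130 to 69097292 with FSK/TNFα, where it held 221 tags (69.5 normalized). By score it ranked 49 of 11749 peaks with FSK and 92 of 14171 with FSK/TNFα, and it was enriched 15.85-fold and 14.53-fold over input. The ratio of FSK/TNFα to FSK was 0.993 (0.789 to 1.26) in tags. In the score, which counts repeated tags once, the ratio was 0.561 per library tag, with an interval of 0.400 to 0.788. The scores before scaling were 70 with FSK and 76 with FSK/TNFα, in libraries of 16438040 and 31807394 tags. At the 13 peaks shared by these 2 lists around the clock genes, score ratios lay between 0.48 and 1.00. The part of library depth in the score ratios was not tested. With TNFα alone, the Per1 gene body instead had a peak from 69098678 to 69098834 (19.3 normalized tags), 192 bp upstream of a later start site. FSK/TNFα had a peak from 69099967 to 69100129 (32.1 normalized tags), 104 bp upstream of another, at 4.59-fold over input and thus close to the 4-fold threshold. Both contain a TGACG, as printed above.

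A further CRTC2 peak stood upstream of Per1 in every list, intergenic and nearest to Tmem107. It held 31.8 normalized tags in control cells at 21747 bp upstream of Per1, 50.5 with FSK at 21611 bp, 60.4 with TNFα at 21636 bp, and 49.7 with FSK/TNFα at 21567 bp. The ratios were 1.59 (1.13 to 2.25) for FSK against control and 1.90 (1.41 to 2.60) for TNFα against control. The genome-wide medians over all shared peaks, in promoters or not, were close to these, at 1.62 and 2.1. FSK/TNFα differed by less than counting error from FSK (0.984, 0.750 to 1.30) and from TNFα (0.823, 0.655 to 1.03) in tags. In the score, the ratio to FSK was 0.554 with an interval of 0.377 to 0.816, which left out 1, and the ratio of TNFα to control was 1.60 (0.981 to 2.67), which did not. The part of library depth in these score ratios was not tested either. The upstream peak was among the best-scored peaks of each list, with rank 43 of 5188 in control cells. The promoter pattern of Per1, with CRTC2 called in all 4 lists, H3AcK27 in all 4, and p65 in none, was shared by 1675 genes. Nearest to Per1 among them were Rabgef1, Mafk, and Psmb4, whose log2 normalized tags differed from those of Per1 by 0.50, 0.51, and 0.57 summed over the 4 CRTC2 lists.

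**Figure D3:**
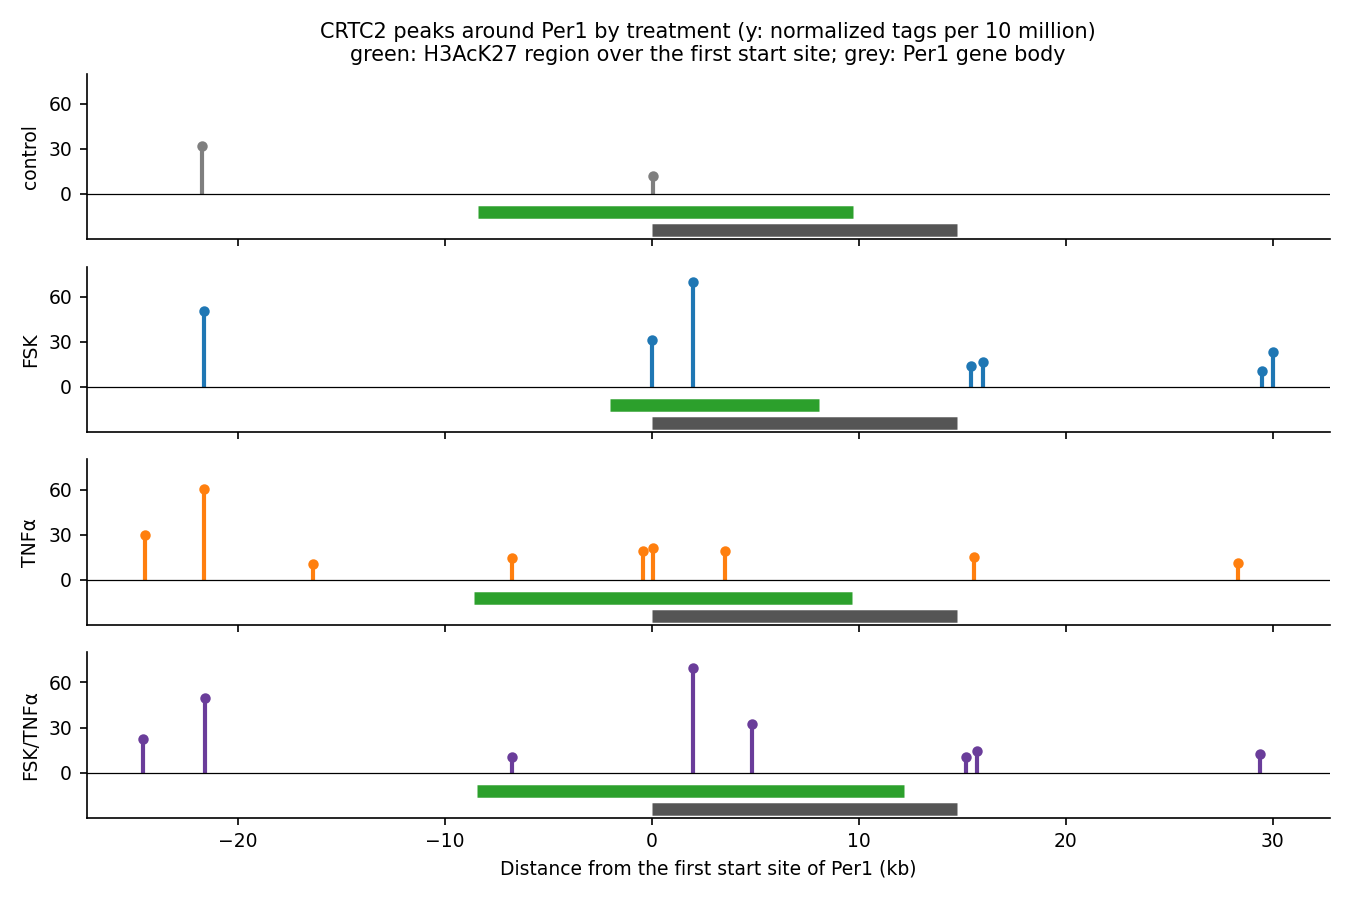
CRTC2 peaks around Per1, with the distance from the first start site in kb on the horizontal axis and normalized tags per 10000000 library tags on the vertical axis, in 1 panel per treatment. Green bars are the H3AcK27 region over the first start site and grey bars the gene body. The tall intron peak appears with FSK (70.0) and FSK/TNFα (69.5), and the upstream peak appears in all 4 panels.

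Per2 and Per3 encode the other period repressors, and both had less CRTC2 than Per1. Per2 (ENSMUSG00000055866, minus strand of chromosome 1 from 91415982 to 91459324) had 0, 2, 2, and 5 peaks in its window. An intronic peak with the TGACG shown above was called 813 bp downstream of the start site with FSK (9.73 normalized tags) and 773 bp downstream with FSK/TNFα (13.5), a ratio of 1.39 (0.767 to 2.64). Like the Per1 intron peak it was called in the 2 libraries with FSK and in no other. A second TGACG-containing peak was called 1592 bp upstream with FSK alone (9.13). The Per2 promoter peak of FSK/TNFα had 8.49 normalized tags at 4.62-fold over input. Both Per2 peaks of the TNFα list were nearest to Ilkap and Hes6 rather than to Per2.

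Per3 (ENSMUSG00000028957, minus strand of chromosome 4 from 151003652 to 151044665) had 0, 1, 3, and 3 peaks. Its start-site peak was called with TNFα (15.5 normalized tags) and FSK/TNFα (10.1), a ratio of 0.652 whose interval included 1 (0.396 to 1.06). It holds no TGACG within 200 bp around its midpoint. The other 4 loci in the window lay within an intron of Camta1 or near the Vamp3 start site, between 10.4 and 18.5 normalized tags.

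The cryptochromes, partners of the PER proteins in repression, behaved differently from each other. Cry1 (ENSMUSG00000020038, minus strand of chromosome 10 from 85131700 to 85185064) had a start-site peak in the 3 treated lists and not in control cells. The values were close, at 10.3 normalized tags with FSK, 8.69 with TNFα, and 10.1 with FSK/TNFα. The ratio of FSK/TNFα was 0.981 (0.524 to 1.87) to FSK and 1.16 (0.657 to 2.07) to TNFα. The CGTCA printed above lies 4 bp from the start site and fell within the searched 200 bases in all 3 lists. Cry2 (ENSMUSG00000068742, minus strand of chromosome 2 from 92403646 to 92434043) had 10.1 normalized tags at its start site in control cells, 18.9 with TNFα, and 17.6 with FSK/TNFα, and no promoter peak with FSK. The ratios to control were 1.87 (1.09 to 3.37) and 1.74 (1.02 to 3.12). In the score, where a position counts once, they were 0.823 and 0.959. Cry2 had a TGACG in its promoter, as did Per1, Per2, and Cry1, but none within its CRTC2 start-site peaks.

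The nuclear receptor genes of the second loop are next. Nr1d1 (ENSMUSG00000020889, minus strand of chromosome 11 from 98767932 to 98775333) had 1, 2, 8, and 2 CRTC2 peaks in its window, so that the TNFα list held most of them. Its best-scored promoter peak had 10.3 normalized tags with FSK, 10.2 with TNFα, and 10.1 with FSK/TNFα. These peaks did not overlap, with midpoints 165 bp downstream, 622 bp upstream, and 3 bp downstream of the start site. The FSK and FSK/TNFα peaks adjoin, the first ending at 98775248 and the second beginning at 98775249, so they need not be separate sites. The FSK peak overlapped a TNFα peak of 16.6 normalized tags, 226 bp downstream, which fell outside the promoter. A second FSK/TNFα promoter peak had 12.6. This last one and the TNFα promoter peak overlapped about 0.6 kb upstream of the start site, with a ratio of 1.24 (0.738 to 2.09), and share the AP1 site TGAGTCA. In control cells the 1 peak lay 1655 bp upstream (12.2 normalized tags) and overlapped a TNFα peak of 11.7 (ratio 0.959, 0.543 to 1.73). With FSK, a peak 10631 bp upstream of Nr1d1, nearer to Msl1, had 9.73 normalized tags and contains the full CRE palindrome.

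The E-box CACGTG occurred in 3 of the 8 TNFα peaks around Nr1d1. The peak 8160 bp upstream was nearest to Nr1d1, and the others were nearer to Thra and to Msl1. Nr1d2 (ENSMUSG00000021775, minus strand of chromosome 14 from 18204054 to 18239127) had 0, 1, 3, and 1 peaks. Its intronic peak was called with 6.69 normalized tags with FSK (797 bp downstream), 19.6 with TNFα (842 bp), and 11.0 with FSK/TNFα (848 bp). FSK/TNFα was 0.561 times TNFα (0.354 to 0.876), an interval that includes the genome-wide median of 0.729 over all shared peaks. In the score that ratio was 0.832 (0.399 to 1.73). FSK/TNFα was 1.64 times FSK (0.816 to 3.59). The Nr1d2 start-site peak of 11.3 normalized tags was called with TNFα alone.

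Dbp (ENSMUSG00000059824, plus strand of chromosome 7 from 45705088 to 45710203), the PAR bZIP factor whose transcription swings widely over the day, had a promoter peak in each treated list, but at a different place in each. Their midpoints lay 842 bp upstream with FSK (11.0 normalized tags), 94 bp upstream with TNFα (14.0), and 373 bp upstream with FSK/TNFα (10.1), and no pair of them overlapped. The intronic peak over the first of the E-boxes printed above was called with 6.88 normalized tags in control cells, 13.4 with FSK, and 12.3 with FSK/TNFα, and was not called with TNFα. The ratios to control were 1.95 (0.937 to 4.20) and 1.79 (0.931 to 3.64), so that the difference was not detectable at this depth. A peak 24.9 kb upstream of Dbp, in an intron of Sec1 and nearest to Ntn5, was called with FSK (35.9 normalized tags) and FSK/TNFα (57.5) and contains the AP1 sequence TGACTCA. Its ratio of 1.60 (1.19 to 2.19) was the 1 comparison of FSK/TNFα with FSK, out of 13 around the clock genes, whose interval left out 1. In the score that ratio was 1.00 (0.663 to 1.55).

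Bhlhe40 (ENSMUSG00000030103, plus strand of chromosome 6 from 108660629 to 108666925), which encodes an E-box-binding repressor, had close values in the 3 treated lists. Its start-site peak had 17.0 normalized tags with FSK, 16.6 with TNFα, and 17.9 with FSK/TNFα, and was not called in control cells. FSK/TNFα was 1.05 times FSK (0.658 to 1.72) and 1.08 times TNFα (0.715 to 1.64). TNFα also gave a peak 1160 bp upstream (18.9 normalized tags) with an E-box and a CGTCA. Arntl (ENSMUSG00000055116, plus strand of chromosome 7 from 113207465 to 113314126), the activator gene of the clock, had no peak in its window in control cells or with FSK. Its promoter peak was called with TNFα (11.0 normalized tags) and FSK/TNFα (8.17), a ratio of 0.743 (0.422 to 1.31), the latter at 4.45-fold over input.

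The peaks shared between lists were compared by their tags. Intervals left out 1 at 2 of 5 shared peaks for FSK against control, 5 of 6 for TNFα against control, and 2 of 3 for FSK/TNFα against control. They did so at 1 of 13 for FSK/TNFα against FSK and at 2 of 13 against TNFα. The share of all shared peaks whose interval left out 1 was not computed, so these counts have no background. Over all shared peaks of the genome, the median ratios to control were 1.62 for FSK, 2.1 for TNFα, and 1.53 for FSK/TNFα. Those of FSK/TNFα were 0.965 to FSK and 0.729 to TNFα. In the score, which counts a position once, the interval for TNFα against control left out 1 at the peak nearest to Pex16 alone (1.11 to 6.34). No score interval of FSK/TNFα against control left out 1. For FSK against control, the same peaks left out 1 in the score as in tags. For FSK/TNFα against TNFα, the score interval left out 1 at the peak nearest to Slc35c1 (0.211 to 0.921). It included 1 at the Nr1d2 intron peak (0.399 to 1.73). Several of the shared peaks were nearest to neighbours such as Tmem107, Pex16, or Rpl18. Against control, 3 of 5 shared CRTC2 peaks were at least 1.5-fold higher with FSK, where 56.5% of all shared peaks were. With TNFα the count was 5 of 6 (background 73.9%), and with FSK/TNFα it was 3 of 3 (background 51.4%). For FSK/TNFα against FSK, 4 of 13 were past 1.5-fold in either direction, 2 each way (background 27.9%). Against TNFα, 3 of 13 were past it, all lower with FSK/TNFα (background 47.7%). Among promoter peaks, FSK/TNFα could be compared with FSK at 2 and with TNFα at 6 genes, and each of these 8 intervals included 1.

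Motifs in the CRTC2 peaks were searched exactly, on both strands, in 200 bp around each midpoint. TGACG, the half-site of the CRE, was found in 2 of 8 control peaks around the clock genes, 7 of 24 with FSK, 8 of 42 with TNFα, and 8 of 35 with FSK/TNFα. Among all CRTC2 peaks of the same lists the shares were 14.7%, 26.3%, 15.7%, and 25.2%. The palindrome TGACGTCA, which counts within these, was found in 0, 2, 0, and 3 peaks. In each of the 2 lists with FSK, 1 of these peaks was nearest to a clock gene (Per1). The others were nearest to Msl1, Vamp3, and Rpl18. The Rpl18 locus was called in all 4 lists, and its palindrome fell within the searched 200 bp with FSK/TNFα alone. In the whole lists the palindrome was in 1.20%, 2.85%, 1.13%, and 2.95% of peaks. The E-box CACGTG, the element that BMAL1 and CLOCK bind, was found in 1 of 8, 1 of 24, 7 of 42, and 1 of 35 peaks, beside 4.41%, 4.70%, 4.49%, and 4.49% of all peaks. The 7 TNFα peaks lay in the windows of Per1, Cry1, Nr1d1, and Bhlhe40, and 5 of them had a start site of a clock gene as the nearest. The AP1 sequence TGAGTCA was found in 0, 1, 1, and 2 peaks, beside 3.68%, 12.2%, 5.30%, and 14.5% of all peaks. The NF-κB motif was found in none, beside 0.0193%, 0.0766%, 0.0819%, and 0.226%.

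The promoters themselves were searched for the same elements. TGACG was in the promoter of 4 of 10 clock genes (Per1, Per2, Cry1, and Cry2), compared with 53.8% of all genes. The E-box was in 5 (Per1, Cry1, Nr1d1, Bhlhe40, and Arntl), compared with 24.6%. The D-box, TTATGTAA or TTACGTAA, to which DBP binds, was in 3 (Per1, Per2, and Per3), compared with 7.22%. TAGGTCA, the core of the ROR and REV-ERB element, was in 2 (Dbp and Arntl), compared with 14.7%. AP1 was in 3 (Per1, Nr1d1, and Bhlhe40), compared with 23.3%, and the full CRE and the NF-κB motif were in none, compared with 3.99% and 0.517%. Each match describes letters in the reference and is not evidence of binding.

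p65, the NF-κB subunit that TNFα sends to the nucleus, had no promoter peak at any of the 10 clock genes in any list. Promoter peaks of p65 were rare in general, at 0.0915% of all genes in the control list, 0.586% with FSK, 0.627% with TNFα, and 1.01% with FSK/TNFα, so that a count of 0 among 10 genes is near the background. In the windows, p65 peaks were called at 0, 3, 1, and 1 genes, where 1.35%, 13.0%, 11.2%, and 16.9% of all genes had one. The FSK list had 4 such peaks: 12.8 normalized tags at 25392 bp upstream and 14.4 at 26628 bp downstream of the Per1 first start site, 10.4 at 7948 bp upstream of Cry2, and 16.8 in an intron of Nr1d1, 2205 bp downstream. The 1 locus in the TNFα lists lay about 28.7 kb upstream of Cry2, nearest to Slc35c1, with 13.0 normalized tags with TNFα and 17.6 with FSK/TNFα (ratio 1.35, 0.824 to 2.22). A p65 peak of the same treatment overlapped 0 of the 8, 24, 42, and 35 CRTC2 peaks around these genes. Over the genome 0.0578%, 0.553%, 0.625%, and 3.36% of CRTC2 peaks had such an overlap, so that a count of 0 is near the background here too.

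H3AcK27 marked the promoters of all 10 clock genes in each of the 4 libraries, where 51.7%, 47.0%, 51.4%, and 49.1% of all genes were marked in control, FSK, TNFα, and FSK/TNFα cells. The windows held 68, 53, 66, and 58 regions in that order, and the FSK library was the shallowest of the 12. Region sums move with region width, so the density in tags per kb of the region over the first start site was compared. Per1 had 115 normalized tags per kb in the control library, 237 with FSK, 116 with TNFα, and 142 with FSK/TNFα. The FSK density of Per1 was 2.06 times control (1.96 to 2.16), the 1 ratio of the 10 clock genes past 1.5-fold in that comparison (background 10.2%). Its region was narrower with FSK, 10108 bp against 18083 bp, and the summed tags differed by a factor of 1.15. The control, TNFα, and FSK/TNFα regions also reached the start site of Vamp2, which the FSK region did not. The part of the width in this ratio was not tested.

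Per3 had the sparsest mark of the 10 with FSK/TNFα, and the order of its values was 46.8 normalized tags per kb in the control library, 43.9 with FSK, 38.1 with TNFα, and 24.5 with FSK/TNFα. FSK/TNFα was 0.522 times control (0.398 to 0.682), and Per3 was the 1 of 10 genes past 1.5-fold there (background 12.9%). It was 0.557 times FSK (0.381 to 0.827) and 0.641 times TNFα (0.486 to 0.841). In summed tags, Per3 with FSK/TNFα was 0.608 times control, 0.83 times FSK, and 0.672 times TNFα. The Per3 region of FSK/TNFα was 4.48-fold over input and thus close to the 4-fold threshold. Against FSK, Per1 and Per3 were past 1.5-fold (2 of 10, background 5.76%), Per1 at 0.602 in density but 1.23 in summed tags. Against TNFα, Per3 was the 1 of 10 (background 7.04%). TNFα against control moved 0 of 10 genes past 1.5-fold (background 4.81%), with ratios between 0.815 and 1.31.

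Among the remaining genes the densest regions were those of Nr1d1 and Dbp. Nr1d1 had 165 normalized tags per kb in the control library, 119 with FSK, 172 with TNFα, and 122 with FSK/TNFα, so that both libraries with FSK were lower than both without. The ratio of FSK to control was 0.722 (0.663 to 0.784) and that of FSK/TNFα to TNFα 0.709 (0.671 to 0.748), while CRTC2 at the Nr1d1 promoter was not called in control cells and was called with FSK. Dbp had 130, 142, 136, and 108, and Bhlhe40 99.4, 89.8, 113, and 83.2 normalized tags per kb in the same order. Nr1d2, Per2, Arntl, Cry1, and Cry2 were between 32.7 and 85.9 in the 4 libraries. The median ratio over the clock genes was 0.994 for FSK against control, 1.06 for TNFα against control, 0.923 for FSK/TNFα against control, 0.907 for FSK/TNFα against FSK, and 0.822 for FSK/TNFα against TNFα. Over all start sites covered in both libraries the medians were 1.05, 1.07, 1.09, 1.04, and 1.01.

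**Figure D4:**
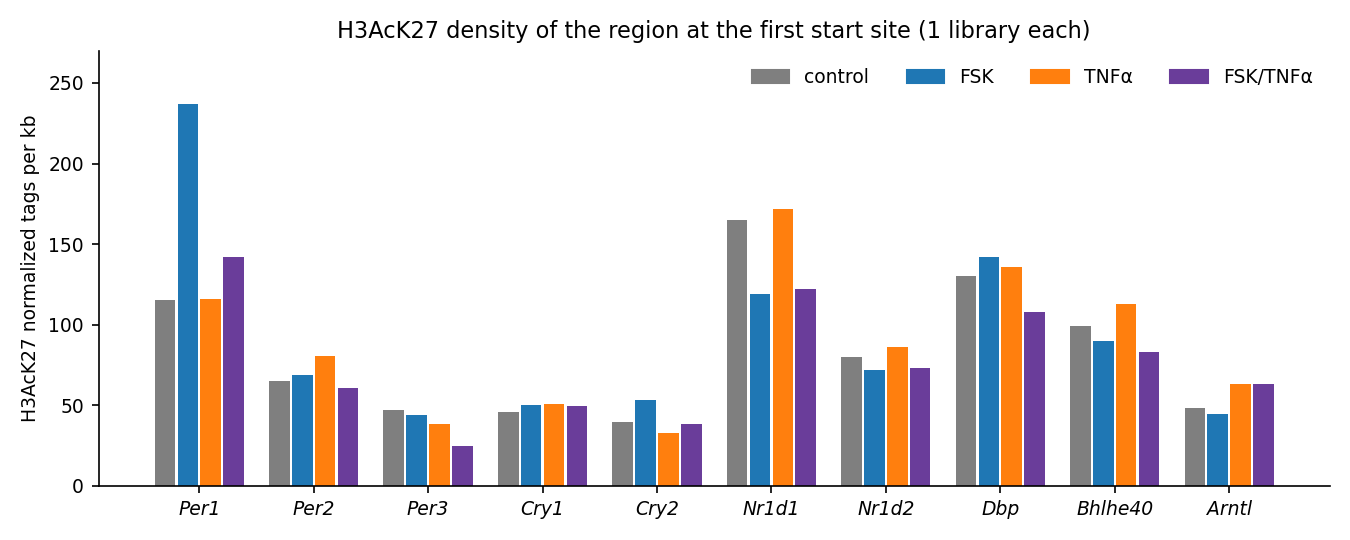
H3AcK27 density, in normalized tags per kb, of the region over the first start site of each clock gene (horizontal axis) in the control, FSK, TNFα, and FSK/TNFα libraries, 1 bar per library. Per1 stands out with FSK at 237, and Per3 declines to 24.5 with FSK/TNFα.

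A list of 19 other genes of the clock pathway was examined in the same way. CRTC2 promoter peaks were called at 1 of them in control cells (Tef), at 9 after FSK, at 9 after TNFα, and at 10 after both, where 11.8%, 27.4%, 39.9%, and 29.1% of all genes had one. Clock, the partner of BMAL1, had 18.3 normalized tags with FSK and 19.6 with TNFα and no peak in the other 2 lists. Ciart, a repressor of the CLOCK and BMAL1 pair, had 31.6 with FSK, 40.0 with TNFα, and 21.1 with FSK/TNFα. Usp2, a deubiquitinase under clock control, was called with FSK (32.2) and FSK/TNFα (36.5) and not with TNFα, as the Per1 intron peak was. Nono (13.4 and 10.1) had the same pattern of calls. Nfil3, the repressor that competes with DBP at D-boxes, was called with TNFα (12.8) and FSK/TNFα (16.3). Tef, Csnk1d, Ciart, Arntl2, Btrc, and Noct were called in all 3 treated lists, between 10.4 and 40.0 normalized tags. Timeless was called with TNFα (12.1) and Csnk1e with FSK/TNFα (6.60). p65 had a promoter peak at 0 of the 19 in every list, and H3AcK27 at 14, 14, 15, and 14 in the control, FSK, TNFα, and FSK/TNFα lists, beside the 51.7%, 47.0%, 51.4%, and 49.1% of all genes given above. The p65 shares of all genes were between 0.0915% and 1.01%.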

How the data were processed

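The data were 12 ChIP-seq peak lists from 3T3-L1 adipocytes (3 antibodies by 4 treatments, 1 library each). The 2 inputs enter through the lists' own input values. The submitters' processing notes name STAR, HOMER, and mm10, without versions. Per the file headers, peaks were called in each library with the HOMER factor setting (CRTC2 and p65) or histone setting (H3AcK27, windows of 500 bp joined), at a false discovery rate of 0.001 and at least 4-fold over input, and for factors also over the surrounding 10 kb. The deposited signal is a tag count that the authors scaled to a library size of 10000000 tags. The deposited score of a factor peak counts a position once, and the deposited fold is the ratio of peak to input tags. The deposited p-value columns were not used. Raw tags were recovered from the signal and the library total.

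Genes and start sites were those of protein-coding transcripts of GENCODE M21, and sequence came from GRCm38.p6. The first start site is the most upstream one in the gene's direction, and an overlap of 1 bp or more made 2 peaks shared. Ratios carry exact (Clopper-Pearson) 95% intervals for counting error, and repeated tags are not independent. The clock genes, the pathway list, the markers, and the tests were chosen with earlier results of these data known. Named genes were the 10 clock genes, the pathway genes with a CRTC2 promoter peak, the 3 genes most like Per1, and neighbours nearest to a described peak. Alternatives covered promoter extent, start sites, overlap, window, threshold, list size, scaling, and motif. The overlap and ratio code was tested on simulated data. Python 3.11.15, numpy 2.4.6, pandas 2.3.3, scipy 1.17.1, pysam 0.24.0, and matplotlib 3.10.9 were used. Sequencing reads were not analysed here, and 1 gene of the pathway list is not reported here.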

Additional observations from a re-analysis of the deposited data

Results flagged for a closer look

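At Per2, the H3AcK27 density of the start-site region was 1.23 times higher with TNFα than in control cells and 0.886 times as high with FSK/TNFα as with FSK, so that the single libraries moved in opposite directions. At Dbp, FSK against control gave 1.09 and FSK/TNFα against TNFα gave 0.793. In both cases each counting interval left out 1, and the difference itself was not tested, since each treatment had 1 library. In summed tags, Per2 gave 0.848 and 0.924 and Dbp 0.776 and 0.917, so that neither moved in opposite directions on that measure.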

How the results depend on the processing

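No paired analysis was possible because each antibody and treatment had 1 library and no result came from a test across samples. Promoter counts changed with the strength required of a peak and, for H3AcK27, with the overlap required. At 8-fold over input, the clock genes with a CRTC2 promoter peak numbered 3 with FSK and 3 with FSK/TNFα, and those with an H3AcK27 promoter region 6 with FSK and 5 with FSK/TNFα. At the same threshold, control and TNFα had 2 and 9 genes with CRTC2 and 9 and 9 with H3AcK27. The lists that fell were those called against the input from FSK-treated cells, and the part of the input was not tested. In lists of equal size, CRTC2 promoter peaks were at 2 genes with FSK, 1 with TNFα, and 3 with FSK/TNFα. Requiring the midpoint of a region inside the promoter left 1, 3, 1, and 1 genes with H3AcK27 in control, FSK, TNFα, and FSK/TNFα cells, because most regions are wider than a promoter. Wider promoters and the start sites of all transcripts kept every promoter count within 1.5 times.

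Counts of peaks in the windows followed the distance allowed. Within 10 kb there were 15, 25, and 23 CRTC2 peaks with FSK, TNFα, and FSK/TNFα, 2, 0, and 0 p65 peaks, and 43, 33, 41, and 32 H3AcK27 regions in the 4 libraries. Within 100 kb the numbers were 17, 45, 69, and 57 for CRTC2, 1, 9, 4, and 5 for p65, and 119, 99, 122, and 107 for H3AcK27. Limited to peaks nearest to a clock gene, they were 5, 11, 21, and 20 for CRTC2, 2, 0, and 0 for p65 in the treated lists, and 35, 26, 30, and 24 for H3AcK27. At 8-fold over input, 8, 18, 34, and 23 CRTC2 peaks remained in the 4 libraries, with 37, 21, 37, and 24 H3AcK27 regions. For p65, 2, 1, and 1 peaks remained in the treated lists. In lists of equal size, 11 CRTC2 peaks each were left with FSK, TNFα, and FSK/TNFα.

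The ratio of TNFα to control reversed at the Per1 promoter when divided by the genome-wide median (0.791), and at the Cry2 promoter both so (0.850) and in the score (0.823). FSK/TNFα against control at Cry2 reversed in the score (0.959). The Per1 H3AcK27 ratio of FSK/TNFα to FSK reversed in summed tags (1.23). The median H3AcK27 ratio over the clock genes was 0.822, 0.866, 1.11, and 0.856 in summed tags for FSK and FSK/TNFα against control and for FSK/TNFα against FSK and TNFα. Divided by the median of all start sites, it was 0.948, 0.990, 0.848, 0.872, and 0.812 over the 5 comparisons in the order of the report. The count of CRTC2 peaks with a CRE was 0, 2, 0, and 3 for the full palindrome. The causes were not tested. Of 172 recomputed values that answer a comparison, 102 did not move, 66 moved, and 4 reversed. A count was taken as moved past 1.5 times, a CRTC2 ratio outside its counting interval, and an H3AcK27 median at any change in 3 digits. Of 100 recomputed H3AcK27 ratios of single genes, 99 moved by that last measure and 1 reversed. Some H3AcK27 ratios that changed side of 1 were counted as moved and not as reversed. In summed tags, Arntl went from 1.32 to 0.828 for FSK/TNFα against control. Bhlhe40 went from 0.927 to 1.39 for FSK/TNFα against FSK, and the median of the clock genes there from 0.907 to 1.11. The CRTC2 libraries held between 16438040 and 31807394 tags, and no setting matched their depth.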
